A study of Homo sapiens and Mus musculus with 18 samples.

Results

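Mesothelium-like cells (MLC) were made from human pluripotent cells by 2 routes, and the comparison of those routes is described here. It rests on 4 libraries of the 18 samples in the series, namely 2 of direct-route MLC and 2 of MesoT-derived MLC. The libraries were chosen by their labels alone. A further 2 samples, MesoT at day 18, served to compare the tables in which the routes were counted. All cells came from WA09, an established human embryonic stem cell line, and all first passed through splanchnic mesoderm, made in 4 days with 25 ng/ml WNT3A and 100 ng/ml BMP4.

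Direct-route MLC were splanchnic mesoderm replated at 150000 cells/cm2 without FGF2 or activin A and given 20 µM SB431542, an inhibitor of the type I receptors for TGF-beta and activin, with 4 µM retinoic acid, and they were collected at day 18. MesoT, the mesenchymal form of mesothelium in this series, were made from the same mesoderm with 25 ng/ml WNT3A, 50 ng/ml BMP4 and 4 µM retinoic acid. MesoT-derived MLC were MesoT replated at the same density into the MLC medium. The age of MesoT-derived MLC is not stated in the labels, so route and age cannot be told apart. Nothing in the labels says that the 2 replicates of a group were separate differentiations. The p-values therefore measure at most the spread between these libraries, which may be technical, and all libraries come from 1 cell line. With the correction described below, they also draw on how far 2 countings of the same MesoT day 18 samples differed. That is no spread between replicates and can make those p-values too small.

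Mesothelium is the epithelial sheet that lines the body cavities and covers the organs within them. It arises from lateral plate mesoderm. WT1 and the retinoic acid producing enzyme ALDH1A2 are used as its markers in the embryo. BMP ligands act through receptors that phosphorylate SMAD1, SMAD5 and SMAD9. These then enter the nucleus with SMAD4 and raise, among others, the ID genes and the feedback inhibitors SMAD6, SMAD7 and BAMBI. SB431542 blocks the receptors of TGF-beta and activin and leaves those of BMP largely active.

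The routes were counted in different tables. Direct-route MLC lay in files of 1 library each and MesoT-derived MLC in a table of several human libraries. MesoT day 18 was counted in both, and the same 2 samples did not give the same counts for every gene. Each gene's difference between the routes was therefore corrected by its difference between the countings of MesoT day 18, which could be done for 17428 genes with a mean of at least 10 counts at day 18 in each table. With the correction, 2337 genes (13.4%) were higher and 3284 (18.8%) lower in direct-route MLC (edgeR quasi-likelihood test, Benjamini-Hochberg adjusted p under 0.05). Without it, among 21697 genes in the 4 MLC libraries, 5607 (25.8%) were higher and 6930 (31.9%) lower. That uncorrected split depended on the scaling, with 3771 higher and 7972 lower when only library totals were used. These counts depend on the samples and on the error estimate. With the 2 countings of day 18 taken as separate groups, 414 genes were higher and 1208 lower. Leaving out either MesoT day 18 sample also left fewer genes called with the correction. That step removes the comparison of countings from the error estimate too. A call said below to end without a day 18 sample therefore does not by itself show that the difference rests on that sample.

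The correction removed the table difference for one sign only, as the plot of route difference by counting difference shows. Where day 18 was counted over 2 log2 units lower in the one-library files (483 genes), the median table difference was -2.75 and the median uncorrected route difference -3.05. After correction that median was -0.06. Where day 18 was counted over 2 log2 units higher there (429 genes), the median table difference was 2.78 but the uncorrected route difference only 0.49, and the correction moved it to -2.72. Of those 429 genes 298 were then called lower. Antisense genes took 0.722% and 0.832% of the day 18 counts in the one-library files. In direct-route MLC they took 0.248% and 0.252%, in MesoT-derived MLC 0.253% and 0.286%, while the day 18 counts of the human table held 0.237% and 0.362%. Direct-route MLC thus lay with the human table in this share.

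**Figure D1:**
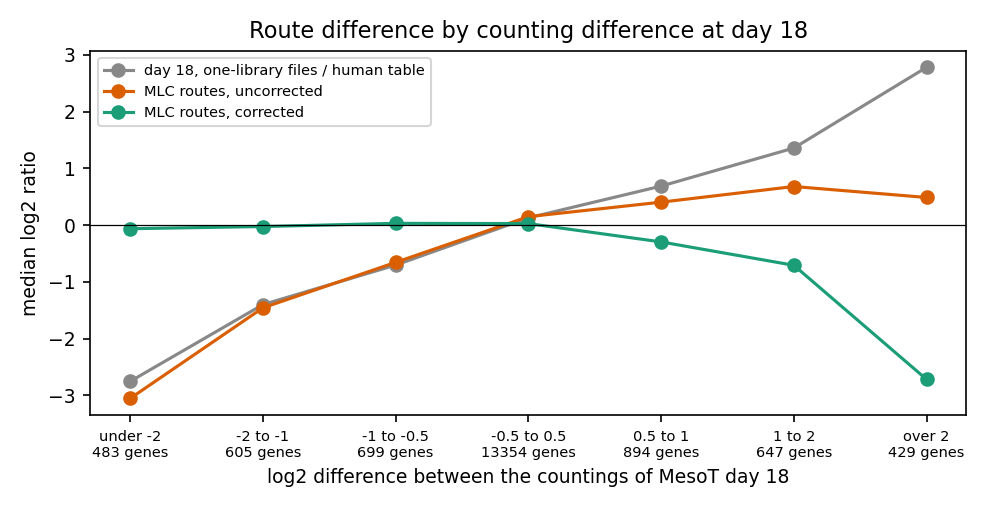
Median log2 ratio (y axis) of genes grouped by the log2 difference between the 2 countings of MesoT day 18 (x axis, with the number of genes), for that difference itself, for the routes without correction and for the routes with it. The uncorrected line follows the table difference on the left, down to -3.05, and leaves it on the right, at 0.49 beside 2.78.

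A gene is therefore called higher or lower below only where it passed the test in the same direction with and without the correction. That held for 2111 genes higher in direct-route MLC (12.1% of 17428) and 2662 lower (15.3%), while 85 genes were lower with the correction and higher without it, and 65 the reverse. Among 12528 genes that day 18 counted alike in the tables (within 0.5 log2 in both samples), 1797 (14.3%) were higher and 1720 (13.7%) lower. When a setting was changed or a library left out, each single gene was followed in the corrected test alone. Genes without a correction were followed in the uncorrected test. A call said below to hold or end there refers to that test, whereas counts of list members needed both. Log2 fold changes are direct-route over MesoT-derived MLC, corrected, with their standard error, and levels are CPM, the counts of each library scaled to a total of 1000000 after TMM normalisation. Of the genes tested with the correction, 79.2% did not overlap between the routes, so a lack of overlap by itself says little. In bulk libraries fewer cells of a type and less RNA per cell cannot be told apart.

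Direct-route MLC had 70679258 and 65709545 counts and MesoT-derived MLC 31433961 and 31435480, so low genes were counted more precisely in the direct route. Mitochondrial genes took 6.87% and 7.80% of direct-route counts against 3.02% and 4.43%. The 2 MesoT-derived libraries stood apart in immediate early genes, whose 16 listed members summed to 421 CPM in replicate 1 and 4866 CPM in replicate 2, beside 2094 and 2038 in direct-route MLC. FOS, a subunit of the AP-1 transcription factor, was at 4.58 and 744 CPM in MesoT-derived MLC and at 340 and 365 in direct-route MLC. MYC was the 1 member called (lower, 42.2 and 96.6 CPM in MesoT-derived MLC against 10.97 and 8.18), and its call ended without MesoT day 18 replicate 1 (adjusted p = 0.0744, edgeR) or replicate 2 (0.0673). The list turned with the MesoT-derived library: 14 members were lower without replicate 1, and 11 were higher without replicate 2.

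Of the markers that define mesothelium, WT1 and KRT19 were present in all 4 MLC libraries. WT1, a transcription factor of mesothelium, was at 262 and 179 CPM in direct-route MLC and 248 and 329 in MesoT-derived MLC, and it was not called (-0.52 ± 0.30). KRT19, an epithelial keratin, was at 468 and 498 against 392 and 200 CPM (0.56 ± 0.41, not called). The 4 genes that mark this comparison, ID3, HAND1, ALDH1A2 and DIRAS3, come next. They were chosen with earlier results of these data known, so their values are a description and no independent evidence.

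ID3, a BMP-responsive inhibitor of basic helix-loop-helix factors, was at 444.2 and 328.6 CPM in direct-route MLC and at 39.4 and 39.3 CPM in MesoT-derived MLC. MesoT day 18 was at 506 and 327 CPM in the one-library files, so direct-route MLC lay at the MesoT level and MesoT-derived MLC below it in both libraries. The log2 fold change was 3.15 ± 0.23 (adjusted p = 0.000547, edgeR). HAND1, a basic helix-loop-helix factor of lateral mesoderm and heart, was at 385 and 433 CPM against 15.1 and 4.73, with day 18 at 24.2 in both samples. Here direct-route MLC stood above MesoT and MesoT-derived MLC below it (5.18 ± 0.66, adjusted p = 0.00286, edgeR).

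ALDH1A2 was at 8.62 and 10.2 CPM in direct-route MLC and at 192 and 703 CPM in MesoT-derived MLC. At day 18 it was at 36.5 and 88.4 CPM, between the routes. The log2 fold change was -5.73 ± 0.79 (adjusted p = 0.00376, edgeR). DIRAS3, an imprinted gene that encodes a small GTPase, was at 3.30 and 2.48 CPM against 29.4 and 93.8, with day 18 at 4.05 and 1.91 (-4.32 ± 0.79, adjusted p = 0.00917, edgeR). For both genes the MesoT-derived libraries differed from each other, and both of them exceeded both direct-route libraries. ID3, HAND1 and ALDH1A2 passed under all 20 alternatives in the test that was followed, which does not require passing both tests. Without direct-route MLC replicate 2, ALDH1A2 did not pass both. DIRAS3 lost its call with limma voom (adjusted p = 0.0756, limma voom) and with the replicate number as a block (adjusted p = 0.0579, edgeR). It also lost its call without MesoT day 18 replicate 1 (log2 fold change -4.32) or replicate 2 (-4.27).

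**Figure D2:**
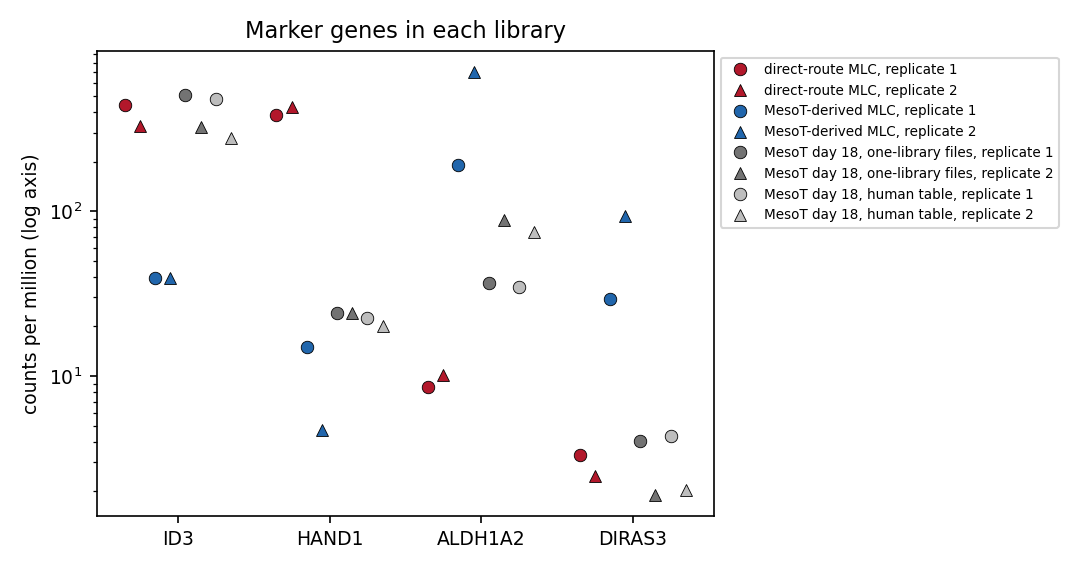
CPM (log axis) of ID3, HAND1, ALDH1A2 and DIRAS3 in each library, with the 2 countings of the same MesoT day 18 samples in grey. Direct-route MLC lie above MesoT-derived MLC for ID3 and HAND1 and below for ALDH1A2 and DIRAS3, and the grey points of both tables lie close together.

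Genes of the BMP response were higher in direct-route MLC. Of 20 listed members, all tested and all counted alike at day 18, 12 were called higher and 1 lower, beside 12.1% and 15.3% of all genes. Their median log2 fold change was 2.12, against -0.03 over all genes. The list includes ID3 and HAND1, which were chosen as markers of this comparison. Members without a call included ID1, ID4, GATA2, GATA3, DLX5 and GREM1, with log2 fold changes from 0.73 to 1.94. Summed over the list, direct-route MLC held 3250 and 3033 CPM and MesoT-derived MLC 484 and 669. With 1 library left out, between 8 members (without direct-route MLC replicate 2) and 17 (without MesoT-derived MLC replicate 1) were called higher, and 1 was lower throughout. With the countings of day 18 as separate groups 5 were higher, and SMAD6, SMAD7, ID2, MSX1, MSX2 and NOG were among those lost.

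The sequences of 2 promoters of this list are printed because the genes moved together and because they show what the SMAD motifs look like, with 1 promoter of a retinoic acid target for contrast. Each is 250 bases before the gene start in RefSeq on GRCh38.p14, read 5′ to 3′ along the gene, and 17 of the 20 list members had a sequence. Capitals mark GGCGCC and GTCTG, 2 short sequences that SMAD proteins are known to bind, and GTCTG on the opposite strand reads CAGAC. In RARB they also mark a direct repeat of the sequence that retinoic acid receptors bind, known as a DR5 element. BAMBI lies at chr10:28677271-28677520 on the plus strand, ID3 at chr1:23559502-23559751 on the minus strand, and RARB at chr3:25428013-25428262 on the plus strand.
BAMBI: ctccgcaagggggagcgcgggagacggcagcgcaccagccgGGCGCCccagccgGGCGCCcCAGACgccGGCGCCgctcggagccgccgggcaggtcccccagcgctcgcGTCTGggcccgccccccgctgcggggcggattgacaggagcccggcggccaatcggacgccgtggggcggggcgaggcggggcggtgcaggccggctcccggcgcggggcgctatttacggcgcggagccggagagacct
ID3: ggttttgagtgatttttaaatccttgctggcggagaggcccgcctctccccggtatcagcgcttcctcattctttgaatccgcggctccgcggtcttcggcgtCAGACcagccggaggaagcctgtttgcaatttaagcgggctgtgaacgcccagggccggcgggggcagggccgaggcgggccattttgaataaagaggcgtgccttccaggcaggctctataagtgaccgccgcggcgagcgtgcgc
RARB: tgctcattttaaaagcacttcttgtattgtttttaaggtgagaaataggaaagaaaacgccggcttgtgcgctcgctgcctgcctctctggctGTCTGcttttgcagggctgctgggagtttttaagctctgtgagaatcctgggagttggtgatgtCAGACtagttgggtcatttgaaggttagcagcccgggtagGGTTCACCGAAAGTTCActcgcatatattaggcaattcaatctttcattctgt
Both strands were searched, and the motifs did not overlap each other in these 3 promoters. GGCGCC occurred in 4 of the 17 BMP response promoters and GTCTG in 5. Among 35114 promoters of the same length, 16.4% held GGCGCC and 38.0% GTCTG. A match here describes letters and not a binding site. The DR5 element occurred in 1 of 18 promoters of the retinoic acid list, that of RARB, and in 0.0740% of all promoters.

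The SMADs and the feedback inhibitors of the pathway are given first. SMAD9, itself a BMP-activated SMAD, was at 125 and 132 CPM in direct-route MLC and 11.9 and 11.7 CPM in MesoT-derived MLC (3.41 ± 0.14, adjusted p = 0.000141, edgeR). BAMBI, a decoy receptor, was at 310 and 311 CPM against 38.6 and 31.0 (2.97 ± 0.19), and MesoT day 18 was above both routes, at 681 and 378 CPM. SMAD7 was at 137 and 111 against 20.2 and 14.3 CPM (2.70 ± 0.26). In each of these genes the replicates of a route lay close together and the routes far apart. SMAD6 was at 363 and 309 against 49.4 and 75.6 CPM (2.28 ± 0.29). SMAD9, BAMBI and ID3 kept their calls under all 20 alternatives, and SMAD7 lost it in 1, with the countings of day 18 taken as separate groups (adjusted p = 0.0600, edgeR).

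Among the transcription factors that BMP raises, ID2 was at 355 CPM in both direct-route libraries and at 55.6 and 109 in MesoT-derived MLC (1.96 ± 0.40). MSX1, a homeobox factor, was at 135 and 146 CPM against 30.3 and 14.3 (2.52 ± 0.44). MSX2, its paralogue, was at 225 and 226 against 37.6 and 28.1 (2.67 ± 0.21). ATOH8, a basic helix-loop-helix factor, was at 16.4 and 17.4 against 5.78 and 8.36 CPM (1.05 ± 0.30). ID2 lost its call without MesoT day 18 replicate 1 or 2 (adjusted p = 0.103 and 0.0845, edgeR), as did MSX1 (0.0775 and 0.0564). The call of ATOH8 ended without any 1 of the direct-route MLC or MesoT day 18 libraries (adjusted p from 0.0891 to 0.215, edgeR). ID1 and ID4 varied within the MesoT-derived route: ID1 was at 14.54 and 118.6 CPM beside 325 and 256 in direct-route MLC, and ID4 at 13.9 and 177 beside 171 and 174. For ID4 the routes therefore overlapped.

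Secreted BMP inhibitors went both ways. NOG, which binds BMP outside the cell, was at 42.6 and 28.4 CPM against 2.57 and 1.88 (4.00 ± 0.40), and BMPER, a BMP-binding protein, at 5.16 and 8.03 against 0.534 and 0.407 (3.71 ± 0.43). CHRDL1, a chordin-like inhibitor, was the list's 1 lower member: 4 and 3 reads, or 0.0637 and 0.0517 CPM, were counted in direct-route MLC and 587 and 549 reads, or 18.4 and 17.2 CPM, in MesoT-derived MLC (-8.23 ± 0.30, adjusted p = 0.000118, edgeR). CHRDL1 also differed between the MesoT samples, at 1.04 and 42.5 CPM. Its call ended with the countings of day 18 as separate groups (adjusted p = 0.144, edgeR).

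Ligand genes did not go with the response genes. BMP2 was at 2.47 and 2.00 CPM in direct-route MLC and 32.1 and 30.8 in MesoT-derived MLC (-3.92 ± 0.19, adjusted p = 0.000251, edgeR). BMP4 was at 34.2 CPM in both direct-route libraries and at 155 and 253 in MesoT-derived MLC (-2.72 ± 0.31). Both ligands of this pair were thus lower in the route whose response genes were higher. Of 14 ligands, receptors and receptor-activated SMADs, 3 were higher (BMPR1A, ACVR2A and ACVR2B, log2 fold changes 0.85 to 1.21) and 4 lower (BMP2, BMP4, BMP6 and SMAD5). Over all genes, 12.1% were higher and 15.3% lower. With 1 library left out the higher members numbered 0 (without MesoT day 18 replicate 1) to 5 and the lower ones 1 (without direct-route MLC replicate 2) to 5. SMAD5 (-0.62 ± 0.18) kept its call in only 1 of the 6 cases, without MesoT-derived MLC replicate 1 (adjusted p = 0.0560 without direct-route MLC replicate 2 and 0.153 without MesoT day 18 replicate 1, edgeR). ACVR2A lost it without MesoT day 18 replicate 1 or 2 (0.106 and 0.0608, edgeR) and ACVR2B without replicate 1 (0.0591). BMPR1A was at 144 and 148 CPM against 60.0 and 55.7, but the one-library files counted more of it at day 18 than the human table, and its call ended without MesoT day 18 replicate 1 (adjusted p = 0.0704, edgeR). BMP6 was below 3 CPM in all 4 MLC libraries and lost its call without either MesoT day 18 sample (adjusted p = 0.125 and 0.0589, edgeR).

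**Figure D3:**
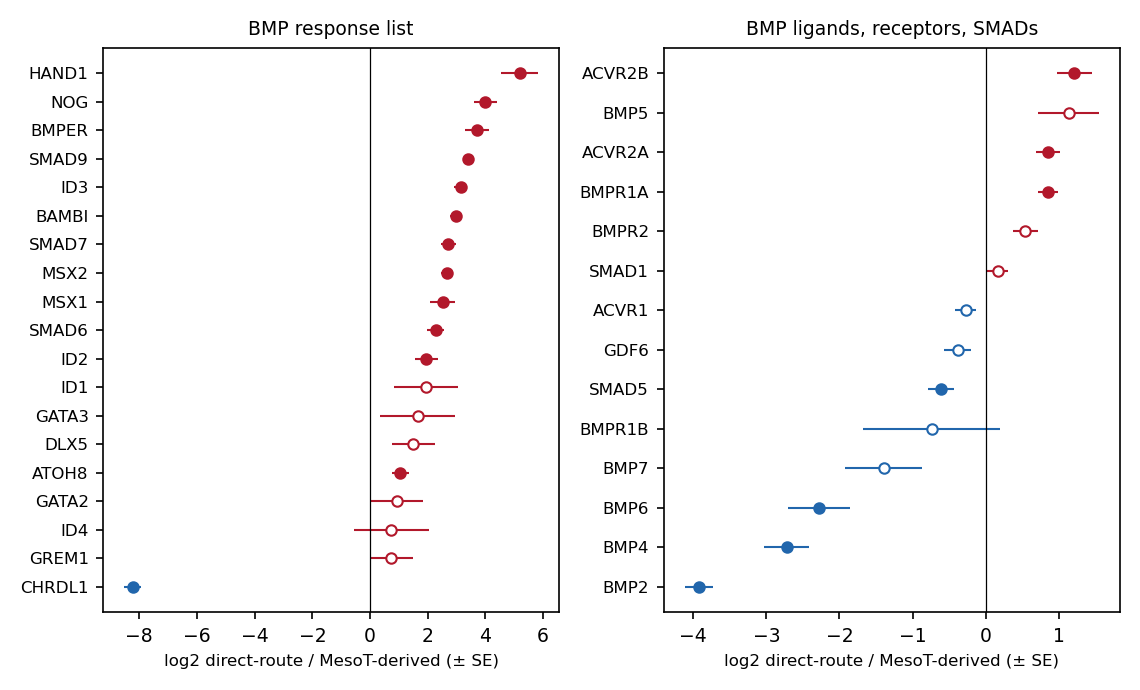
Corrected log2 fold change, direct-route over MesoT-derived MLC, with its standard error, for the members of the BMP response list named in the text (left) and for BMP ligands, receptors and SMADs (right). Filled points passed the test with and without the correction and open points did not. All plotted response genes but CHRDL1 lie to the right of 0, whereas BMP2, BMP4 and BMP6 lie to the left.

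TGF-beta response genes went both ways, with 5 of 19 tested members higher and 5 lower, beside 12.1% and 15.3% of all genes, and a median of -0.15. With 1 library left out 2 to 9 were higher (9 without MesoT-derived MLC replicate 2) and 1 to 6 lower (1 without direct-route MLC replicate 2). With all 13 human columns 3 were higher and 0 lower. The higher members included SMAD7 and BAMBI, which the BMP list also holds. LTBP2, a latent TGF-beta binding protein, was at 0.573 and 0.551 CPM against 3.99 and 3.73 (-3.08 ± 0.21), with day 18 at 76.7 and 7.68. TGFB3, a ligand, was at 40.2 and 36.6 against 89.2 and 73.9 CPM (-1.22 ± 0.17). LTBP2 was thus low in both routes beside MesoT, and lowest in the direct one. Its call ended, among others, with the countings of day 18 as separate groups (adjusted p = 0.398, edgeR) and with all 13 human columns (0.0507).

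Retinoic acid was in the medium of both routes. Of 19 tested genes of its list 3 were higher and 2 lower, near the 12.1% and 15.3% of all genes, with a median of -0.16. The lower ones include ALDH1A2, which was chosen as a marker of this comparison. Leaving out 1 library gave 1 to 8 higher and 1 to 4 lower, with the most of each without MesoT-derived MLC replicate 1. RXRG, a retinoid X receptor, had 6476 and 5112 reads (103 and 88.1 CPM) in direct-route MLC and 2 and 1 reads in MesoT-derived MLC. The uncorrected ratio was 2039, with a 95% exact counting interval of 697 to 9888, and the corrected log2 fold change was 10.65. MesoT day 18 had 1.62 and 1.58 CPM of RXRG, so it was nearly silent in MesoT too, and its call held in every one of the 18 alternatives that tested it. RXRG was outside the counted-alike set. RARB, an induced receptor gene, was at 80.1 and 70.3 against 88.2 and 74.4 CPM (-0.32 ± 0.18, not called). CYP26B1, which degrades retinoic acid, was at 489 and 211 CPM against 2176 and 3030.3 (-3.04 ± 0.55), and its call ended without MesoT day 18 replicate 1 (adjusted p = 0.0710, edgeR) or replicate 2 (0.0746). ALDH1A2 and CYP26B1, which make and remove retinoic acid, were thus both lower in direct-route MLC, while RARB was not called.

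ALDH1A3, another retinaldehyde dehydrogenase, was too low at day 18 for correction. It had 4 and 0 reads in direct-route MLC and 108 and 562 reads (3.39 and 17.6 CPM) in MesoT-derived MLC, called lower in the uncorrected test (-8.20 ± 1.28). That call ended without direct-route MLC replicate 1 (adjusted p = 0.0596, edgeR) or replicate 2 (0.0974).

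Transcription factors of lateral mesoderm were mostly higher in direct-route MLC. Of 19 tested, 11 were called higher and 1, NR2F1, lower, beside 12.1% and 15.3% of all genes. The median log2 fold change was 1.46. Summed over the list, direct-route MLC held 3061 and 2960 CPM and MesoT-derived MLC 1026 and 959. GATA4, a zinc finger factor of heart and coelomic mesoderm, was at 448 and 341 CPM against 8.38 and 8.42, and at 13.4 and 9.29 at day 18 (5.44 ± 0.22, adjusted p = 0.000141, edgeR). GATA4 was high in direct-route MLC alone among these groups. TBX5, a T-box factor of heart and forelimb fields, was at 122 and 106 against 16.64 and 15.53 CPM (2.60 ± 0.20), and ISL1, of the second heart field, at 13.7 and 13.3 against 2.01 and 1.28 (2.77 ± 0.27). TWIST1, a mesenchymal factor, was also called higher (1.46 ± 0.18). FOXF2 was tested without correction and was higher (3.86). The smallest leave-one-out count of higher members was 5, without MesoT day 18 replicate 1, and the largest 15, without MesoT-derived MLC replicate 1. With the countings of day 18 as separate groups 5 were higher. NR2F1 lost its call without MesoT day 18 replicate 1 or 2 (adjusted p = 0.0747 and 0.0637, edgeR). GATA4 lost its call only in the fit of all 13 human columns (adjusted p = 0.0780, edgeR).

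Genes of mesothelium itself went both ways, 5 of 20 higher and 5 lower, beside 12.1% and 15.3% of all genes. The lower ones include ALDH1A2, which was chosen as a marker of this comparison. UPK3B, a uroplakin of mesothelium, was at 67.3 and 46.1 CPM in direct-route MLC and 160 and 298 in MesoT-derived MLC (-2.10 ± 0.44). LRRN4, a membrane protein, was at 172 and 147 against 618 and 1053 CPM (-2.49 ± 0.35). MSLN, the surface protein mesothelin, was at 3.87 and 2.46 against 6.88 and 23.6 CPM (-2.48 ± 0.89) and was not called. UPK3B and LRRN4 were thus present in both routes and higher in MesoT-derived MLC. TBX18, a T-box factor of epicardium, went the other way, at 265 and 266 CPM against 20.2 and 26.3 (2.97 ± 0.19), and it was counted higher at day 18 in the one-library files. TCF21, a factor of coelomic mesenchyme and epicardium, was at 30.8 and 54.8 against 9.36 and 5.51 CPM (2.35 ± 0.47). CALB2, the calcium-binding protein calretinin, was at 3.50 and 3.31 against 0.377 and 0.313 CPM (3.16 ± 0.36).

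The calls of these markers depended on the setting. With all 13 human columns LRRN4, TBX18 and CALB2 lost their calls (adjusted p = 0.0682, 0.119 and 0.145, edgeR). In that fit 2 members of the mesothelial list were higher and 1 lower. UPK3B lost its call in 6 alternatives, among them without direct-route MLC replicate 2 (adjusted p = 0.0511, edgeR) and without MesoT day 18 replicate 1 or 2 (0.0927 and 0.104). TCF21 lost it in 4, among them without MesoT day 18 replicate 1 or 2 (0.0986 and 0.0770). WT1 itself passed the test without MesoT-derived MLC replicate 1 (adjusted p = 0.0161, edgeR), as did MSLN (3.55e-05) and KRT19 (4.78e-05). Without direct-route MLC replicate 2 none of the 5 lower members of the mesothelial list passed both tests. UPK1B and MUC16 had no correction: UPK1B was lower (-2.32) and MUC16 higher (2.94) in the uncorrected test. MUC16 lost its call without direct-route MLC replicate 1 or 2 (adjusted p = 0.0622 and 0.189, edgeR), and for UPK1B the one-library files gave 0 and 0.166 CPM in MesoT day 18, beside 3.64 and 4.64 in the human table.

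Genes of the epithelial and mesenchymal axis, by which the series names its cells, went both ways. CDH1, the epithelial cadherin, was at 230 and 248 CPM in direct-route MLC and 197 and 177 in MesoT-derived MLC (0.18 ± 0.15, not called). COL1A1, the main fibrillar collagen chain, was at 6067 and 7393 against 7899.9 and 4487.5 CPM, so the routes overlapped (0.02 ± 0.39). The junction list had 4 members higher and 4 lower out of 29, and the mesenchymal list 6 higher and 5 lower out of 24, beside 12.1% and 15.3% of all genes, so the junction counts were near the share of all genes. With 1 library left out the junction list had 1 to 18 members higher (18 without MesoT-derived MLC replicate 1) and 0 to 7 lower (0 without direct-route MLC replicate 2). The mesenchymal list had 1 to 9 higher and 1 to 6 lower. VIM, the mesenchymal intermediate filament, was at 2886 and 3170.3 CPM against 834 and 559 (1.65 ± 0.29), and SNAI1, a repressor of epithelial genes, at 80.0 and 69.4 against 4.93 and 2.66 (4.18 ± 0.37). MGP, a matrix protein, was lower, at 3.25 and 3.02 CPM against 134 and 108 (-5.57 ± 0.19). VIM lost its call without MesoT day 18 replicate 1 (adjusted p = 0.0821, edgeR) or replicate 2 (0.0584), and it was counted higher at day 18 in the one-library files.

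Of 18 smooth muscle genes 7 were lower and 3 higher, beside 15.3% and 12.1% of all genes, with a median of -0.96 with the correction and -0.28 without it. The lower count fell to 3 without any 1 of the direct-route MLC or MesoT day 18 libraries, to 1 with all 13 human columns and to 0 with the countings of day 18 as separate groups. ACTA2, smooth muscle actin, was at 12.5 and 15.1 CPM against 35.9 and 41.4, both far below the 616 and 97.9 CPM of MesoT day 18 (-2.14 ± 0.18). MYH11, smooth muscle myosin, was at 0.111 and 0.121 against 1.48 and 1.16 CPM (-4.79 ± 0.59). ACTA2, MYH11, TAGLN and MYL9, 4 of the 7 lower members, had more counts at day 18 in the one-library files than in the human table, which makes the corrected values more negative, and the uncorrected log2 fold change of ACTA2 was -1.48. DES, the muscle intermediate filament desmin, was among the highest genes of the whole comparison, at 108 and 111 against 2.67 and 1.10 CPM (5.68 ± 0.49). ACTA2 lost its call, among others, with all 13 human columns (adjusted p = 0.328, edgeR), TAGLN without MesoT day 18 replicate 1 or 2 (0.0567 and 0.0681), and DES kept it in all 20 alternatives.

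Cardiac muscle genes went both ways. Of 15 tested, 7 were higher (TNNI1, ACTC1, ACTN2, MYL4, MYL7, RYR2 and HCN4) and 4 lower (TNNC1, NPPB, TTN and LDB3), beside 12.1% and 15.3% of all genes. Between 5 and 8 were higher and between 1 and 5 lower with 1 library left out, and with all 13 human columns 2 were higher and 1 lower. HCN4, a pacemaker channel, was at 121 and 108 CPM against 4.21 and 5.29 (4.52 ± 0.23, adjusted p = 0.000251, edgeR), and RYR2, the calcium release channel of heart muscle, at 44.6 and 47.1 against 4.65 and 4.17 (3.32 ± 0.21). MYL7, an atrial light chain, was at 76.1 and 61.0 against 6.91 and 7.86 CPM (3.16 ± 0.21). TTN, the giant sarcomere protein, was lower, at 4.83 and 4.45 against 19.8 and 25.6 CPM (-2.91 ± 0.21). Low levels were found for MYH6 and NKX2-5, which were picked after their values were seen and do not speak for the list. MYH6, a cardiac myosin, was at 0.143 and 0.190 against 0.314 and 1.69 CPM (called lower in the uncorrected test, -2.57 ± 0.84). NKX2-5, a cardiac homeobox factor, was at 0.0637 and 0.224 against 0.408 and 0.157. The whole list summed to 387 and 352 CPM in direct-route MLC and 128 and 182 in MesoT-derived MLC. HCN4, RYR2 and TTN kept their calls in all alternatives that tested them, while MYL7 lost its call, among others, with all 13 human columns (adjusted p = 0.182, edgeR). MYH6 lost it without direct-route MLC replicate 1 or 2 (0.251 and 0.246, edgeR) or MesoT-derived MLC replicate 2 (0.447). Without MesoT day 18 replicate 1 or 2 the calls of ACTC1 (0.186 and 0.162, edgeR), ACTN2 (0.0926 and 0.0767), LDB3 (0.140 and 0.0959) and NPPB (0.0942 and 0.0951) ended, and that of TNNC1 ended without replicate 2 (0.0609). ACTC1 also lost its call without direct-route MLC replicate 1 or 2 (0.110 and 0.0694, edgeR), and LDB3 without direct-route MLC replicate 1 (0.0593).

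HOX genes, which record position along the body axis and are switched on in the order of their paralogue number, are shown by cluster and paralogue group in the plot of HOX genes. Of 14 anterior genes (groups 1 to 5) 4 were higher and 2 lower, with a median of 0.21. Among 23 posterior genes (groups 6 to 13) 2 were higher and 9 lower, with a median of -1.78. Over all genes, 12.1% were higher and 15.3% lower. With 1 library left out, between 4 and 11 posterior genes were lower, the fewest without MesoT day 18 replicate 1, and 0 to 5 anterior genes were higher, again the fewest without that library. With all 13 human columns, or with the countings of day 18 as separate groups, 2 posterior genes were lower. In the HOXC cluster HOXC8 was at 6.26 and 4.76 CPM in direct-route MLC and 71.7 and 96.7 in MesoT-derived MLC (-3.96 ± 0.28). HOXC8 also differed between the MesoT samples at day 18, at 65.3 and 4.23 CPM, and its call ended with the countings of day 18 as separate groups (adjusted p = 0.282, edgeR).

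In the HOXD cluster HOXD8 was at 0.0955 and 0.103 CPM against 4.77 and 6.55 (-6.00 ± 0.44, adjusted p = 0.000568, edgeR). HOXD4 had 0 and 1 reads in direct-route MLC and 290 and 401 in MesoT-derived MLC. The uncorrected ratio was 0.000764, with a 95% exact counting interval of 1.93e-05 to 0.00427. With the correction its log2 fold change was -6.69, a smaller difference that lies outside that interval. For MesoT day 18 the one-library files gave 0.578 and 0.954 CPM of HOXD4, beside 4.79 and 9.21 in the human table, so the tables differ for it too. HOXD3 was also lower (-4.71 ± 0.88), and it lost its call without MesoT day 18 replicate 1 or 2 (adjusted p = 0.0875 and 0.0732, edgeR). The posterior genes called higher were HOXB7 and HOXC13. HOXC13 was at 1.04 and 1.33 CPM against 0.157 and 0.282 (2.46 ± 0.49), and lost its call without MesoT day 18 replicate 1 or 2 (adjusted p = 0.120 and 0.0697, edgeR). HOXB7 was at 36.8 and 31.1 CPM against 4.49 and 3.41 (3.10 ± 0.24, adjusted p = 0.000693, edgeR), while its neighbours in the cluster were not called (HOXB6 0.03 ± 0.20, HOXB8 0.15 ± 0.21). HOXD8, HOXD4 and HOXB7 kept their calls in all alternatives that tested them. HOX clusters overlap antisense and read-through transcripts, and without a stated strand setting their reads cannot be told apart.

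**Figure D4:**
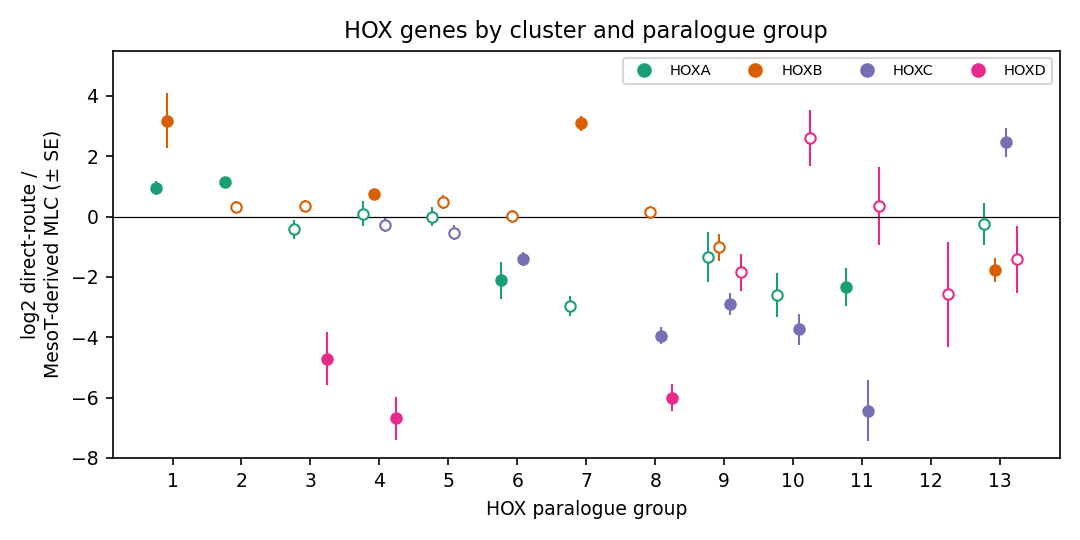
Corrected log2 fold change with its standard error (y axis) of each tested HOX gene by paralogue group (x axis), coloured by cluster, filled where the call held with and without the correction. The filled points of groups 6 to 11 lie below 0 apart from HOXB7, at 3.10.

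The genes furthest apart between the routes, among those counted alike whose mean log2 CPM reached 3, are listed next by role. Of the 10 highest, GABRP was first. GABRP, a subunit of the GABA-A receptor that is found in amnion and other epithelia, was at 650 and 735 CPM in direct-route MLC, 10.7 and 1.97 in MesoT-derived MLC and 57.2 and 59.1 at day 18 (6.64 ± 0.90, adjusted p = 0.00349, edgeR). Direct-route MLC were above MesoT and MesoT-derived MLC below it. VTCN1, an immune checkpoint ligand of epithelia, was at 271 and 301 against 15.9 and 2.54 CPM (4.72 ± 0.96). Guidance receptors were represented by UNC5C, a netrin receptor, at 339 and 400 against 7.54 and 1.91 CPM (6.14 ± 0.72), and PLXNA4, a semaphorin co-receptor, at 150 and 162 against 3.74 and 5.39 (5.09 ± 0.24). CCDC3, a secreted protein, was at 109 and 114 against 1.79 and 1.91 CPM (5.75 ± 0.18), with close replicates in both routes. COL6A6, a collagen VI chain, was at 283 and 317 against 13.7 and 8.08 (4.67 ± 0.34). SLITRK6, a neuronal membrane protein, was at 47.0 and 69.5 against 3.27 and 0.626 (4.75 ± 0.76). The remaining members were DES, GATA4 and HAND1, described above. With the countings of day 18 as separate groups, UNC5C, PLXNA4 and SLITRK6 lost their calls (adjusted p = 0.0603, 0.0995 and 0.259, edgeR). VTCN1 lost its call without MesoT day 18 replicate 1 or 2 (adjusted p = 0.102 and 0.0879, edgeR), and so did SLITRK6 (0.0627 and 0.0622).

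Of the 10 lowest, SPOCK2, a proteoglycan, was at 5.45 and 2.29 CPM in direct-route MLC and at 159 and 944 in MesoT-derived MLC (-7.24 ± 1.20). HTRA1, a secreted protease, was at 1.15 and 2.41 against 38.1 and 136 CPM (-5.75 ± 0.88), and TFPI2, a protease inhibitor, at 17.7 and 16.6 against 393 and 691 (-5.19 ± 0.37). SPOCK2 and HTRA1 thus varied strongly between the MesoT-derived libraries. IGF1, the growth factor, was at 2.48 and 5.34 against 115 and 258 CPM (-5.66 ± 0.66), while MesoT day 18 held it at 89.0 and 112. Neural genes in this group were SLITRK2, at 2.33 and 5.44 against 149 and 232 CPM (-5.60 ± 0.59), SHANK1, a synaptic scaffold (-5.42 ± 0.57), DPYSL5, a guidance protein (-5.36 ± 0.36), and NGFR, the p75 neurotrophin receptor, at 3.65 and 4.24 against 175 and 81.1 CPM (-5.16 ± 0.51). IGF1, SLITRK2, SHANK1, DPYSL5, NGFR and ALDH1A2 passed in all 20 alternatives in the test that was followed. ALDH1A2 did not pass both tests without direct-route MLC replicate 2. With the countings of day 18 as separate groups, TFPI2 and MGP lost their calls (adjusted p = 0.204 and 0.0870, edgeR). SPOCK2 lost its call without MesoT day 18 replicate 1 or 2 (adjusted p = 0.0662 and 0.0639, edgeR), and so did HTRA1 (0.0575 and 0.0535).

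Since GABRP, VTCN1 and ISL1 are also genes of amnion, the whole list for amnion and surface ectoderm is given. GABRP, which prompted the list, is itself counted in it and is no independent evidence. Over all genes, 12.1% were higher and 15.3% lower. Of 11 tested members 5 were higher, with a median of 2.30, and with 1 library left out between 1 (without direct-route MLC replicate 2) and 9 were higher. TFAP2B, an ectodermal factor, was at 46.5 and 60.6 CPM against 1.98 and 0.0940 (5.65 ± 1.04), and its call ended without MesoT day 18 replicate 1 (adjusted p = 0.0839, edgeR) or replicate 2 (0.0771). The list summed to 1994 and 2303 CPM in direct-route MLC and 1025 and 752 in MesoT-derived MLC, and none of its 14 measured members was at 0 in either route. Their part in the differences above was not tested.

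Markers of other cell types were mostly low. Their counts stand beside 12.1% higher and 15.3% lower over all genes, and the endothelial count was near that share. Of 13 endothelial genes 2 were lower (TIE1 and ERG), a count that ran from 0 (without MesoT day 18 replicate 2) to 6 (without MesoT-derived MLC replicate 2), their sum was 177 and 230 CPM against 195 and 224, PECAM1 had 0 reads in both routes, and CDH5 was at 0.653 and 0.258 against 27.9 and 1.66 CPM. Of 9 pericyte genes 3 were lower (KCNJ8, ABCC9 and MCAM), with sums of 245 and 315 against 576 and 446 CPM, and the count was 0 without either MesoT day 18 sample and 4 without either MesoT-derived library. Hepatocyte genes summed to 195 and 85.8 against 122 and 257 CPM and gut genes to 121 and 83.6 against 42.7 and 144. Neural genes summed to 161 and 136 against 19.6 and 9.96 CPM, with 2 of 5 higher (DCX and STMN2) and 1 lower (PAX6); the higher count was 0 without direct-route MLC replicate 2 or MesoT day 18 replicate 1 and 3 without MesoT-derived MLC replicate 1. SOX1, NEUROD1 and ELAVL4 had 0 reads in both routes. Of 10 tested pluripotency genes 5 were higher and 2 lower, with a median of 1.81 and sums of 322 and 353 against 132 and 71.5 CPM. With the countings of day 18 as separate groups 2 were higher and 2 lower. Of these lists the neural and pluripotency ones separated the routes in their sums without overlap in the higher direction. The pericyte list did so in the lower direction. Their part in the results was not tested.

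Podocyte genes, a list that shares TCF21 with the mesothelial one, are given because several stood far apart. PODXL, the anti-adhesive surface protein podocalyxin, was at 633 and 704 CPM in direct-route MLC and 2377 and 2824.5 in MesoT-derived MLC (-2.11 ± 0.20). PTPRO, a receptor phosphatase, was at 0.0318 and 0.0861 against 1.07 and 1.28 CPM (-4.43 ± 0.56), and SYNPO, an actin-binding protein, at 50.7 and 59.0 against 166 and 159 (-1.74 ± 0.16). NPHS1, the slit diaphragm protein nephrin, had no correction: it was at 1.61 and 2.52 against 61.8 and 76.3 CPM, but for MesoT day 18 the one-library files gave 0.308 and 0.373 CPM, beside 3.44 and 4.41 in the human table. In all, 4 of 7 tested members were lower and 2 higher, beside 15.3% and 12.1% of all genes. With the countings of day 18 as separate groups these were 2 and 0. The summed level was 765 and 864 against 2681 and 3193 CPM. PODXL lost its call, among others, with all 13 human columns (adjusted p = 0.0960, edgeR) and SYNPO likewise (0.176), whereas PTPRO kept it in all alternatives that tested it.

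Of the genes too low at day 18 for correction, 5 met the rule for naming. MUC13, an epithelial mucin with 0 reads in all 4 countings of day 18, was at 5.38 and 3.34 CPM in direct-route MLC and 21.0 and 117 in MesoT-derived MLC (uncorrected -3.98 ± 0.84), and its call ended without direct-route MLC replicate 1 or 2 (adjusted p = 0.118 and 0.181, edgeR). APOA2, an apolipoprotein, was at 6.16 and 5.17 against 9.92 and 24.5 (-1.60 ± 0.44) and lost its call the same way (0.164 and 0.240). PIK3R2, MOG and NPHS1 differed between the countings of day 18 themselves, PIK3R2 at 0.154 and 0.290 CPM in the one-library files against 157 and 93.6 in the human table. The large uncorrected difference of PIK3R2 (-9.08) therefore cannot be told apart from the file. The same holds for the imprinted transcripts MEG3 and MEG8, which had 0 reads in MesoT day 18 in the one-library files and 1.79 to 6.15 CPM in the human table.

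**Figure D5:**
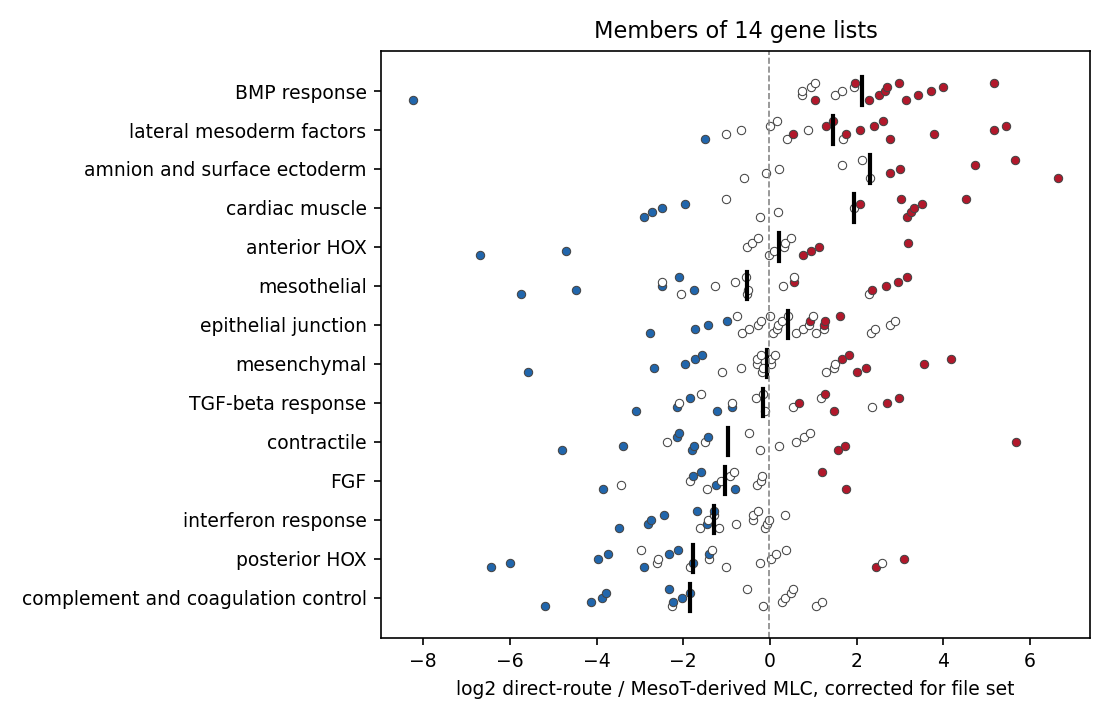
Corrected log2 fold change (x axis) of the tested members of 14 gene lists, red where called higher in direct-route MLC, blue where lower and white where not called both ways, with each list's median as a black bar and that of all genes as a dashed line. BMP response and lateral mesoderm factors lie mostly right of the line and posterior HOX and complement genes mostly left.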

How the data were processed

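RNA sequencing counts per gene were deposited for each library, as raw read counts keyed by Ensembl gene; the submitters' processing notes name TopHat2 2.0.13, Bowtie2 2.2.9, Subread 1.4.2 with featureCounts, MACS2 2.1.1 and hg19, without their roles. The strand setting of the counting is not given in the sources used here. The one-library files held 63677 IDs and the table of human libraries held 56299, of which 53243 were shared, and 46802 of those had a symbol. No per-sample column was left unmapped (0).

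Differences were tested with edgeR 4.0.16 (R 4.3.3; TMM scaling, filterByExpr, quasi-likelihood test, Benjamini-Hochberg adjusted p under 0.05 over all genes). The corrected fit held 8 columns of 6 samples, with a term for each MesoT day 18 sample and a term for the table (3 residual degrees of freedom). Part of these degrees of freedom came from the 2 countings of the same day 18 samples and not from replicates. The uncorrected fit held the 4 MLC libraries (2 degrees of freedom). CPM are TMM-scaled counts per 1000000. Ratios of genes with few reads are not corrected for the table. They carry exact counting intervals, which cover counting error only. DESeq2 1.42.0 and limma 3.58.1 (voom) were alternatives, and leaving out mitochondrial genes was chosen after seeing the data.

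Genes were named by rule: the 10 highest and 10 lowest corrected fold changes among genes called both ways, counted alike, not overlapping and reaching 3 in mean log2 CPM; up to 4 members per list by smallest p; fixed markers; and the most changed genes without correction. FOS, HOXB6, HOXB8, CDH5, MYH6, HOXC13 and NKX2-5 were added after their values were seen, as were the members whose names complete a count. The members and lists were chosen with earlier results of these data known. A few genes are not reported here.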

Additional observations from a re-analysis of the deposited data

Results flagged for a closer look

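In 10 of the genes named, the routes lay on opposite sides of MesoT day 18 by at least 2 log2 units each. Each route was set against day 18 of its own table, although direct-route MLC were not made from MesoT. The difference between the routes, tested by edgeR with correction, is given for each. GABRP differed from day 18 by 3.57 in direct-route MLC and by -3.06 in MesoT-derived MLC (difference 6.64). UNC5C (6.14), CCDC3 (5.75), TFAP2B (5.65) and SNAI1 (4.18) also lay above day 18 in direct-route MLC and below it in MesoT-derived MLC. SPOCK2 lay on the other sides, with a difference of -7.24, as did ALDH1A2 (-5.73), SHANK1 (-5.42), DPYSL5 (-5.36) and TFPI2 (-5.19). The measure uses the mean of the day 18 samples, and for TFPI2 these differed widely, at 396 and 23.2 CPM in the human table. MesoT-derived MLC replicate 1, at 393 CPM, was not above the first of them. Among all 3517 genes called both ways and counted alike, 38 lay on opposite sides by this measure, 15 with direct-route MLC above and 23 with it below. The groups of 2 libraries were too small to look for a single outlying library.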

How the results depend on the processing

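Counts of called genes moved with several choices, and the cause was not tested. Genes higher in direct-route MLC numbered 2337 with the correction, 5607 without it, 414 with the 2 countings of day 18 as separate groups, and 393 to 4201 with 1 library left out. Genes lower numbered 3284, with 6930 without the correction, 1876 without it among genes counted alike, 1208 with separate groups, 2067 with all 13 human columns, 2168 with a day 18 minimum of 50 counts, and 1077 to 4246 with 1 library left out. Without the correction, higher genes ranged from 1171 to 6038 and lower genes from 3469 to 6587 with 1 library left out, and 3897 were lower with at least 50 counts in 1 route. Among genes counted alike and called both ways, higher genes numbered 299 with separate groups and 264 to 3207 with 1 library left out; lower genes numbered 450 with separate groups, 944 with all 13 columns, 1090 with a tolerance of 0.25 log2, and 447 to 2189 with 1 library left out.

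Replicate numbers do not pair the samples: deviations of same-numbered libraries correlated at -0.065 over 17428 genes. With the number as a block, 623 genes were higher and 1402 lower, and 472 and 582 of those counted alike and called both ways.

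4 genes that were not called changed sign. COL1A1 was at -0.0041 with library totals only, at -0.029 with TMM factors from genes counted alike, and at -0.22 to 0.49 with 1 library left out. HOXB6 was at -0.0032, -0.032 and -0.055 to 0.24 under the same settings. FOS was at 2.42 with limma voom and at -1.26 to 6.17 with 1 library left out, and ID4 at -0.15 to 3.63. No called gene named here reversed under any alternative. In the corrected fit, scaling moved neither the median of all genes by over 0.1 log2 nor the split of calls by over 10 percentage points. In the uncorrected fit, library totals only gave 3771 higher and 7972 lower, beside 5607 and 6930. With 2 libraries per route, depth limited genes of few reads: CHRDL1, HOXD4 and RXRG rest on 0 to 4 reads per library in 1 route.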

Other observations

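Other lists held genes lower in direct-route MLC, beside 15.3% of all genes called lower and 12.1% higher. Of 19 interferon response genes 7 were lower (edgeR, called both ways), and with 1 library left out 2 to 13 were lower. BST2, an interferon-induced membrane protein, was at 22.2 and 26.7 CPM in direct-route MLC and 201 and 103 in MesoT-derived MLC (-2.75 ± 0.42). The call of BST2 ended without MesoT day 18 replicate 1 (adjusted p = 0.0517, edgeR) or replicate 2 (0.0518). Of 17 genes of complement and coagulation control 8 were lower, with 3 to 9 lower when 1 library was left out. CD55, which protects cells from complement, was at 9.30 and 7.46 against 40.3 and 34.9 CPM (-2.34 ± 0.21), and C1R, a complement protease, at 15.4 and 13.2 against 69.5 and 60.4 (-2.02 ± 0.18).

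HEY2, a NOTCH target and transcriptional repressor, was at 20.0 and 20.4 CPM in direct-route MLC and 0.911 and 0.438 in MesoT-derived MLC (4.69 ± 0.40), while JAG1, a NOTCH ligand, was at 48.4 and 55.2 against 137 and 241 (-1.91 ± 0.35). JAG1 lost its call without MesoT day 18 replicate 1 or 2 (adjusted p = 0.0762 and 0.0801, edgeR). RNF43, a WNT feedback inhibitor, was at 92.0 and 86.5 against 10.9 and 13.1 CPM (2.57 ± 0.17), while AXIN2, another, was lower at 65.6 and 71.4 against 151 and 210 (-1.03 ± 0.23). AXIN2 lost its call without direct-route MLC replicate 1 or 2 (adjusted p = 0.0638 and 0.0511, edgeR) or MesoT day 18 replicate 1 or 2 (0.0969 and 0.140). FGF10, a mesenchymal ligand, was at 0.446 and 0.655 against 6.25 and 8.46 CPM (-3.86 ± 0.45). Of 24 cell cycle genes 3 were higher, near the 12.1% of all genes, with a median of 0.21, and the other 21 were not called. That count depended on which library was left out. MKI67, the proliferation marker, was at 379 and 389 against 187 and 153 CPM (1.05 ± 0.17). MKI67 lost its call without MesoT day 18 replicate 1 (log2 fold change 0.99). It also lost its call with the countings of day 18 as separate groups (adjusted p = 0.282, edgeR).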
